A study of Mus musculus with 14 samples.

Results

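The 4 samples described here are mammary glands of MMTV-neu mice that lay next to an MMTV-neu tumor and were called preneoplastic by the submitters. They carry the numbers 23, 25, 49 and 51 in their titles, were chosen by those titles alone, and are 4 of the 14 arrays of a series that also holds tumors and wild-type glands. All 4 glands share the transgene, neu, a receptor tyrosine kinase gene driven by the long terminal repeat of the mouse mammary tumor virus, which is active mainly in mammary epithelium. The labels used here give neither strain, age nor parity for these 4 glands, and nothing says that they came from 4 different animals. They do give a lot batch number, which is 2001815 for glands 23 and 25 and 2004907 for glands 49 and 51. The question was how far glands under 1 label differ, along the lot batch and singly, and which tissue components differ with them. Because each gland has 1 lot batch, a difference between glands and a difference between lot batches cannot be told apart.

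A mammary gland is an epithelial tree of milk-secreting luminal cells and contractile basal cells inside a fat pad, with fibroblasts, vessels and immune cells around the ducts. The pad is mostly white fat, and in mice it can hold brown or beige fat cells, which burn lipid for heat. Body-wall muscle and skin lie against it. RNA from a piece of gland therefore mixes all of these sources. In such bulk RNA, fewer cells of a type and less RNA per cell cannot be told apart.

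Markers of mammary epithelium and fat were bright in all 4 glands, as the label would have it. Csn1s1, which encodes a casein, had intensities of 68627 in gland 23, 184954 in gland 25, 132752 in gland 49 and 138939 in gland 51. Krt18, a keratin of luminal cells, ranged from 8849 to 22408, and Acta2, the smooth muscle actin of basal cells and vessel walls, from 6026 to 11880. Adipoq, which encodes the fat-cell hormone adiponectin, ranged from 31979 to 45744. These values are probe set intensities as deposited, read as already scaled because the trimmed mean lay near 1501 on each of the 4 arrays. Values under 101.42 were set to that floor, and differences are on the log2 scale, lot batch 2004907 minus 2001815. Their standard errors (SE) are those of limma, with 2 glands per lot batch and a spread drawn toward that of all probe sets. A probe set was called at an adjusted p under 0.05 in limma.

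The 4 glands did not fall cleanly into lot batches, because gland 25 lay far from glands 49 and 51 and gland 23 lay between. Over the 8668 probe sets tested, the root mean square log2 difference was smallest between glands 49 and 51, at 0.666. It was 0.834 between glands 23 and 25, which share a lot batch. Gland 23 was nearer to gland 49 of the other lot batch, at 0.788, and about as far from gland 51, at 0.847. Gland 25 was 1.09 from gland 49 and 1.10 from gland 51. The count of probe sets at least 2-fold apart ran from 953 between glands 49 and 51 to 2617 between glands 25 and 51, with 1540 between glands 23 and 25, above the 1490 between glands 23 and 51. The order of the 2 closest and the 2 farthest pairs was the same after quantile normalization, with 0.641 for glands 49 and 51 and 1.09 for glands 25 and 51. Among the brightest 3468 probe sets the pairs were closer, from 0.532 for glands 49 and 51 to 0.743 for glands 25 and 51. The difference between lot batches held 53.4% of the sum of squares among the 4 arrays, the difference between glands 23 and 25 held 28.4%, and that between glands 49 and 51 held 18.1%. On the first principal component, with 60.2% of the variance, gland 25 stood at 60.1, gland 23 at 11.2, gland 49 at -34.4 and gland 51 at -36.9.

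**Figure D1:**
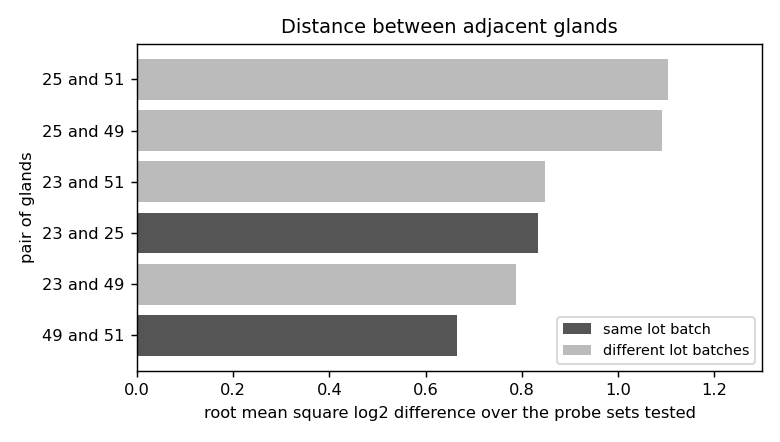
Root mean square log2 difference for each of the 6 pairs of adjacent glands, over the probe sets tested; dark bars are pairs of the same lot batch and light bars pairs of different ones. Glands 49 and 51 are the closest pair at 0.666, and both pairs of gland 25 with the other lot batch are the farthest, at 1.09 and 1.10.

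Between the lot batches, 12 of 8668 probe sets (0.138%) were called by limma with Benjamini-Hochberg adjustment, 8 lower (0.0923%) and 4 higher (0.0461%) in glands 49 and 51. Without regard to a test, 30.2% of probe sets lay lower and 19.3% higher in both of those glands than in both others. They stand for 11 genes, and most belong to 3 kinds of tissue: striated muscle, brown fat and secretory epithelium. At an unadjusted p under 0.05 there were 1372 probe sets (15.8%). When any 1 gland was left out, no probe set was called, and at an unadjusted p under 0.05 the counts then ran from 527 without gland 51 to 1907 without gland 23. Without an intensity trend in the spread 7 probe sets were called, 6 of them among the 12. The brightest probe sets of Atp2a1, Tnnt3, Cidea, Lalba and Ccl5 then lost their call (limma adjusted p from 0.0965 to 0.108). When the spread was taken from all 14 arrays, 144 were called, the 12 among them. The smallest two-sided p that an exact permutation of 2 against 2 glands allows is 0.333, so no such test was used.

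**Figure D2:**
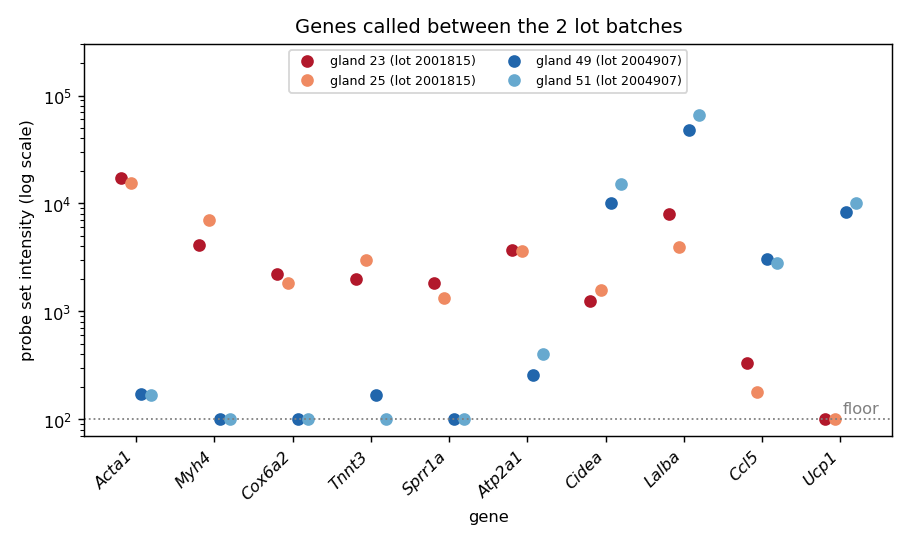
Intensity (log scale) of the 10 genes called between the lot batches through their brightest probe set, 1 point for each gland, red for lot batch 2001815 and blue for 2004907; the dotted line is the floor of 101.42. Acta1, Myh4, Cox6a2, Tnnt3, Sprr1a and Atp2a1 are high in glands 23 and 25, and Cidea, Lalba, Ccl5 and Ucp1 in glands 49 and 51, with no overlap.

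Skeletal muscle genes were higher in lot batch 2001815, with 4 called. Acta1, the actin of skeletal muscle fibers, stood at 17373 in gland 23 and 15564 in gland 25, against 173 in gland 49 and 170.2 in gland 51. Glands 23 and 25 were thus alike and far above both others, with a difference of -6.58 ± 0.30 (SE, limma adjusted p = 0.000191). The 250 bases before its start, from RefSeq (GRCm38.p6, chr8:123894776-123895025, minus strand), are shown because the muscle genes ran together; capitals mark a TATAAA match, the CArG box bound by serum response factor and E-boxes (CANNTG), the sites of myogenic helix-loop-helix factors.
Acta1: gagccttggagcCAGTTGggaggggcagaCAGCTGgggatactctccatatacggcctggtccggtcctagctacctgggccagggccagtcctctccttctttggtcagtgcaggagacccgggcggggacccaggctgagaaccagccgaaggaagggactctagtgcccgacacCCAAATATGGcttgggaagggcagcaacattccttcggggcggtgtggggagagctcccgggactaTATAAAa
Over both strands, 4 of the 24 muscle genes with a promoter in the table held a CArG box (16.7%), against 1.40% of 27025 promoters. An E-box stood in 20 of them (83.3%), against 66.0% of all. These matches describe letters in a window and not bound sites.

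The contractile genes of fast fibers followed Acta1. Myh4, the fast IIb myosin heavy chain, was at 4090.3 and 7079 in glands 23 and 25 and at or under the floor in glands 49 and 51, so it was at least 53.1-fold lower there (limma adjusted p = 0.00232). Its other probe set had 539 and 624 against 139 and 156. Tnnt3, the fast troponin T, had 1986 and 2973 against 169 in gland 49 and the floor in gland 51, a difference of -4.21 ± 0.47 (SE, limma adjusted p = 0.0214). This call was also lost under quantile normalization (limma adjusted p = 0.0509) and with a floor of 20 (0.123). Atp2a1, the calcium pump of the fast-fiber sarcoplasmic reticulum, had 3748 and 3603 against 258 and 404, a difference of -3.51 ± 0.36 (SE, limma adjusted p = 0.0158). A second Atp2a1 probe set, with 2882 and 2985 against the floor and 122, was called as well. Cox6a2, the striated-muscle form of a cytochrome c oxidase subunit, had 2235 and 1829 in glands 23 and 25 and was at or under the floor in both others, at least 19.9-fold lower (limma adjusted p = 0.0214). All of these genes were detected in both glands of lot batch 2001815 and were low or under the floor in both of the other. For Myh4 and Cox6a2 both low glands were set to the floor, so their spread was not measured and the p can be too small.

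Over the whole muscle list, 29 genes were measured and 4 were called, all lower in glands 49 and 51, against 0.156% of all genes called in either direction. In 26 of the 29 both of those glands lay under both of glands 23 and 25, against 28.4% of all 6427 genes in that direction, and the median difference was -2.21, against -0.05 for all genes. Many members, among them Acta1, Myh4, Tnnt3 and Actn3, passed the filter only through glands 23 and 25. For these the filter favoured this direction, so the count and the median follow from it in part. Without the filter the median was -1.71. The members' intensities summed to 70692 and 76621 in glands 23 and 25 and to 12132 and 12480 in glands 49 and 51. Actn3 (adjusted p = 0.0704), Tnnc2 (0.0519) and Myl1 (0.0534), also parts of the contractile apparatus, missed the threshold of limma. Tnnc2, the fast troponin C, had 1915 and 2742 against 329 and 372. Of 25 muscle genes at least 2-fold apart without overlap, 7 had another probe set, and in 7 of 7 it met the same rule.

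Between the 2 glands of lot batch 2001815 some slow-fiber genes stood apart. Myl2, the slow regulatory myosin light chain, was at 2158 in gland 23 and at or under the floor in glands 25, 49 and 51, so gland 23 was at least 21.3-fold above the rest. Tnnc1, the troponin C of slow and cardiac fibers, was at 925 in gland 23 and at or under the floor elsewhere. Myl3, a slow and cardiac light chain, was at 646 there and likewise at or under the floor in the other three. Myl2, Tnnc1 and Myl3 passed the filter only through gland 23, so floor and filter fixed that it stood alone. Acta1 and Atp2a1 were nearly equal in glands 23 and 25, and Myh4 had its higher value in gland 25. Other genes of slow fibers were present in both glands, in either order: Tnnt1, the slow troponin T, had 1205 in gland 23 and 1529 in gland 25, Tnni1, the slow troponin I, had 3072.5 in gland 23 and 2026 in gland 25, and Myh7, the slow myosin heavy chain, 703 and 346. Myh1, the fast IIx myosin, had 2396 in gland 23 and 752 in gland 25.

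**Figure D3:**
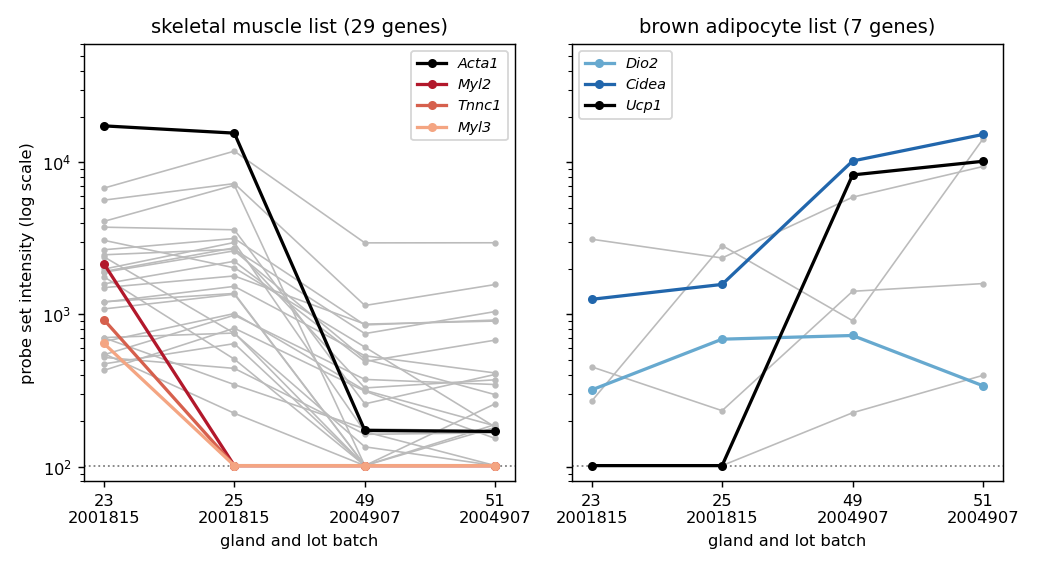
Intensity (log scale) of each measured gene of the skeletal muscle list (left) and the brown adipocyte list (right) in the 4 glands; a line joins the values of 1 gene, named genes are colored or black, the others grey, and the dotted line is the floor of 101.42. Muscle genes are high in glands 23 and 25, Myl2, Tnnc1 and Myl3 in gland 23 alone, and Ucp1 and Cidea are high in glands 49 and 51.

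Brown fat genes ran the other way. Ucp1, the mitochondrial uncoupling protein that defines brown and beige fat cells, was at or under the floor in glands 23 and 25 and reached 8266 in gland 49 and 10162 in gland 51. It was at least 90.4-fold higher in lot batch 2004907 (difference 6.50 ± 0.34 SE, limma adjusted p = 0.000286). Because glands 23 and 25 were both set to the floor, their spread was not measured, and the SE and p can be too small. Its second probe set gave 253, 454, 1132 and 1627.5 in glands 23, 25, 49 and 51, the same order of lot batches with a smaller difference. Its promoter from RefSeq (GRCm38.p6, chr8:83290098-83290347, plus strand) is shown as that of the gene highest over the other lot batch. It holds none of the motifs searched (TATAAA, CArG box, CANNTG, TTCNNNGAA), which says only that those letters are not in this window.
Ucp1: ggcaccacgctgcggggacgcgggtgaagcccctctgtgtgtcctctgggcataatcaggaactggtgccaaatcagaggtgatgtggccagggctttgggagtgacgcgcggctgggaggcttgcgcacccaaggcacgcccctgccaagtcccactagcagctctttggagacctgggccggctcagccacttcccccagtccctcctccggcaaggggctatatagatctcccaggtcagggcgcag

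Cidea, a lipid-droplet protein abundant in brown fat and also made in the lactating gland, had 1257 and 1575.5 in glands 23 and 25 and 10207 and 15262 in glands 49 and 51 (difference 3.15 ± 0.31 SE, limma adjusted p = 0.0158). Of the 7 brown adipocyte genes measured, 5 lay higher in both glands of lot batch 2004907, against 19.9% of all genes, and the median difference was 2.04. Ucp1 and Elovl3 passed the filter only through that lot batch, and without the filter the median was 1.51. Cox7a1, a cytochrome c oxidase subunit of muscle and brown fat, had 453 and 233 against 1420 and 1596 and was not called (limma adjusted p = 0.158). Cox8b, another such subunit, had 3124 and 2350.5 against 5901 and 9392. Fabp3, a fatty acid binding protein of muscle, brown fat and lactating gland, did not follow the lot batch: it had 269 in gland 23, 2839 in gland 25, 909 in gland 49 and 14285 in gland 51. Dio2, which activates thyroid hormone in brown fat, was at 319, 688, 727 and 339, with no separation.

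White fat cell genes were high in every gland and were highest in gland 51. Of the 25 measured, 21 were highest in gland 51, against 1495 of all 6427 genes. In both glands of lot batch 2004907, 5 of 25 lay higher (against 19.9% of all genes) and 3 lower (12.0%, against 28.4%). The median level of this list falls in the brightest quintile of probe sets, where 31.1% lay higher and 14.2% lower. The median difference was 0.34. Cidea, a member here too, was the 1 called. Fabp4, the fatty acid binding protein of fat cells, had 3387 and 4081 against 1883 and 2299, and Lep, which encodes leptin, 9568 and 10014 against 5684 and 5835, both lower in lot batch 2004907 and neither called. Gpd1, which makes glycerol phosphate for lipid, went the other way with 6976 and 7055 against 15112 and 37615. Without gland 51 the median difference of the list was -0.00043, without gland 25 it was 0.083 and without gland 49 it was 0.77.

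Genes of fatty acid synthesis formed a gradient from gland 23 to gland 51 rather than a split. Gland 23 was the lowest for 8 of 13 and gland 51 the highest for 9, against 1025 and 1495 of all 6427 genes. The median difference was 0.84 and none was called. The median was 0.43 without gland 23, 0.44 without gland 51 and 1.37 without gland 25. In both glands of lot batch 2004907, 5 of the 13 lay higher (38.5%, against 19.9% of all genes) and none lower (against 28.4%). Fasn, the fatty acid synthase, had 13902 in gland 23, 38476 in gland 25, 37686 in gland 49 and 63652 in gland 51. Acly, which supplies cytosolic acetyl-CoA, had 7081, 14370.1, 14504 and 58821. Elovl6, a fatty acid elongase, had 1428, 4842, 8335 and 19291 (limma adjusted p = 0.223). Scd1, a desaturase, varied less, from 75253 in gland 23 to 127542 in gland 25. Fat cells and milk-making epithelium both use these enzymes, so the list belongs to neither alone.

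Among the milk proteins proper, Lalba was the 1 called, and the others varied from gland to gland. Lalba, alpha-lactalbumin, the regulatory subunit of lactose synthase, had 8069 in gland 23 and 3958 in gland 25 against 48423 in gland 49 and 65313 in gland 51. The lot batches did not overlap, and the difference was 3.31 ± 0.37 (SE, limma adjusted p = 0.0214). Its promoter from RefSeq (GRCm38.p6, chr15:98482684-98482933, minus strand) is shown as that of the called milk gene; capitals mark 3 E-boxes (CANNTG), and TTCNNNGAA, the core of STAT-binding sites, has no match in this window.
Lalba: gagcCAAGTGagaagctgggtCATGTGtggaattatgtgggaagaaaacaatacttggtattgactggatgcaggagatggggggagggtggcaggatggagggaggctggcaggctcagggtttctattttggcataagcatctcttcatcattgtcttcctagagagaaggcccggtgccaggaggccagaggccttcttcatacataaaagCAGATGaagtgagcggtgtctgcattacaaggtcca

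Caseins had smaller differences, none called. Csn3, kappa-casein, lay higher in lot batch 2004907 by 0.34 ± 0.25 (SE), with 64243 and 81870.4 against 93791.5 and 90268.5, and was not called (limma adjusted p = 0.516). Csn2, beta-casein, had 35178 and 113073 in glands 23 and 25 and 42124 and 80102 in glands 49 and 51, with no separation (difference -0.12 ± 0.54 SE). Wap, whey acidic protein, was low in gland 23 at 2195 and in gland 49 at 7228 and high in gland 25 at 36460.2 and in gland 51 at 56349.7, so that each lot batch held a low and a high gland. Glycam1, a secreted mucin of milk, had 2651 in gland 23, 11102 in gland 25, 13051 in gland 49 and 82035 in gland 51. Xdh, xanthine dehydrogenase of the milk fat globule membrane, did separate the lot batches, with 1891 and 1128 against 5662 and 10422, and missed the threshold (limma adjusted p = 0.100). Over the 22 milk and secretion genes, 2 were called, Lalba and Cidea, against 0.156% of all genes. In both glands of lot batch 2004907, 9 lay higher (40.9%, against 19.9%) and 1 lower (4.55%, against 28.4%). The median difference of 0.58 was 0.29 without gland 23, 0.39 without gland 51, 0.86 without gland 25 and 0.92 without gland 49. Gland 23 was the lowest for 14 of the 22 and gland 51 the highest for 12, against 1025 and 1495 of all 6427 genes.

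Markers of the epithelial layers themselves differed little between lot batches. The luminal list of 25 genes had a median difference of 0.04, with 3 higher and 4 lower in both glands 49 and 51 (against 19.9% and 28.4% of all genes) and none called. Its sign turned under quantile normalization, to -0.09. Foxa1, a transcription factor of hormone-sensing luminal cells, had 2426 and 1847 against 847 and 900.5, and Cdh1, E-cadherin, 2451.5 and 4096 against 1479.5 and 1377 (limma adjusted p of 0.22 and 0.235). Cldn4, a tight-junction claudin, had 1720 and 1185 against 4168 and 2470. The basal list of 16 genes had a median of -0.04, with none called. In both glands 49 and 51, 5 lay lower (31.2%, against 28.4% of all genes) and none higher (against 19.9%). The median turned to 0.12 when arrays were centred on their medians. Snai2, a basal-cell transcription factor, had 3352 and 3919 against 2221 and 2534, and Actg2, an enteric smooth muscle actin, 2362 and 3477 against 1475 and 1469.7. Actins share much of their sequence, so the Actg2 values are uncertain.

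Hormone-sensing genes varied by gland. Tnfsf11, the RANK ligand through which progesterone acts on neighbouring cells, had 679.5, 523 and 617 in glands 23, 25 and 49 and was at or under the floor in gland 51. Wnt4, a second progesterone target, was at 563 and 631 in glands 23 and 49 and at 156 and 122 in glands 25 and 51, a split that crosses the lot batches and is the reverse of that of Wap. Socs2, an inhibitor of growth hormone and prolactin signalling, had 18209 in gland 49 and between 2378 and 5533 in the others. The 6 genes measured had a median difference of -0.63, and -0.19 without gland 51, with 2 lower (33.3%, against 28.4% of all genes) and none called.

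Epidermal genes were higher in lot batch 2001815, most of all in gland 25. Sprr1a, a cornified-envelope protein, had 1838 and 1347 in glands 23 and 25 and was at or under the floor in glands 49 and 51, at least 15.5-fold lower (limma adjusted p = 0.0467). The call held in 3 of 12 alternatives and was lost under quantile normalization (limma adjusted p = 0.0765), with floors of 20 and 200 (0.0526 and 0.0536) and under a stricter filter (0.0528). Of 16 epidermis and hair follicle genes, 13 lay lower in both glands 49 and 51, against 28.4% of all genes, and none lay higher, against 19.9%. Only 1 was called, against 0.156% of all genes. The median difference was -1.04, and -0.51 without gland 25. Some members, among them Sprr1a, Sprr3 and Krt31, passed the filter only through lot batch 2001815, and without the filter the median was -0.75. Gland 25 was the highest for 13 of the 16, against 2139 of all 6427 genes. Krt2, a keratin of the upper epidermis, had 1110.5, 2432, 699 and 739.6 in glands 23, 25, 49 and 51, and Krt31, a hair keratin, 428, 966, the floor and 265. The main keratins of the epidermis did not separate the lot batches to a like degree, with Krt10 at 449, 417, 417 and 378 and Krt1 at 148, 787, 424.5 and 415. Sprr3, a relative of Sprr1a, was at 898 in gland 25 and at or near the floor in the other three.

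Ccl5, a chemokine made by T cells, natural killer cells and macrophages, was the 1 immune gene called. It had 335 and 179 in glands 23 and 25 and 3064 and 2816 in glands 49 and 51, a difference of 3.58 ± 0.41 (SE, limma adjusted p = 0.0228), and was not called under quantile normalization (limma adjusted p = 0.0613). Ltb, a lymphocyte cytokine, had 574 and 560.2 against 3749 and 2331 and missed the threshold (limma adjusted p = 0.0704). Among T-cell receptor genes, Cd3e had 141, 258, 1502 and 593 in glands 23, 25, 49 and 51, and Zap70, a kinase of the T-cell receptor, 659.9, 209, 2763 and 941. Cd8b1, a chain of the CD8 co-receptor, was at 643 in gland 49 and at or under the floor in the other three. All of these had their highest value in gland 49. Gland 49 was the highest for 8 of 17 T and NK cell genes, against 1430 of all 6427 genes. In both glands of lot batch 2004907, 6 lay higher (35.3%, against 19.9% of all genes) and 2 lower (11.8%, against 28.4%), none called. The lower ones were Lat, an adaptor of T cells, with 1972 and 2653 against 781 and 831, and Gzmb, granzyme B, with 719.8 and 629.8 against 431.5 and 359.5. The median of this list was 0.23, 0.00 without gland 49, 0.0085 without gland 23 and 0.85 without gland 25.

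Among B-cell genes, Cd79b and Cd79a, the signalling chains of the B-cell receptor, had 226 and 246 against 1979.7 and 723, and 454 and 738 against 2991 and 1460.1. Of 17 B and plasma cell genes 8 were highest in gland 49, 5 in gland 25, 3 in gland 51 and 1 in gland 23. Of all 6427 genes these were 1430, 2139, 1495 and 1363. In both glands of lot batch 2004907, 5 lay higher (29.4%, against 19.9% of all genes) and 2 lower (11.8%, against 28.4%), none was called, and the median of 0.58 was 0.032 without gland 49. Ms4a1, which encodes CD20, had 952, 1499, 2160.0 and 1082. Ighd went against these with 1207 and 3006 against 704 and 629.

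Immunoglobulin transcripts, which plasma cells make in bulk, were lowest in gland 23. This set was chosen after its values were seen. Of 44 immunoglobulin probe sets tested, 28 were lowest in gland 23 and none was highest there, whereas gland 23 was the lowest for 17.0% of all probe sets tested. The median log2 deviation from the mean of the glands was -0.67 in gland 23, 0.46 in gland 25, 0.03 in gland 49 and 0.31 in gland 51. Igha, the constant region of IgA, had 4513 in gland 23, 17371 in gland 25, 18557 in gland 49 and 15031 in gland 51. A dimmer Igha probe set gave 352, 943, 497 and 501. Ighm had 1816, 5231, 5211 and 11578, and Jchain, which joins IgA and IgM units, 1668, 3302, 3569 and 5034. The variable gene Igkv6-14 had 184 in gland 23 against 1260.4, 1694 and 1807. The 3 probe sets of Ighv14-2 were all at or under the floor in glands 23 and 25, between 484 and 1086 in gland 49 and between 159 and 223 in gland 51. Variable segments share much of their sequence, so the value of a single segment is uncertain.

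Macrophage genes were higher in lot batch 2004907 by small amounts. Of the 21 measured, 14 lay higher in both of its glands (19.9% of all genes did) and 1 lower (28.4% of all genes did), with a median difference of 0.57 and none called. Laptm5, a lysosomal protein of blood cells, had 2962.5 and 2616 against 6966 and 6391 (limma adjusted p = 0.174). Mrc1, the mannose receptor, had 1306 and 982 against 2074.5 and 2369, and Csf1r, the receptor of the macrophage growth factor, 3406 and 2101 against 4384 and 6329.6. Fcgr3, an Fc receptor, went the other way with 287 and 609 against 157 and the floor. Cd74, the invariant chain of MHC class II, had 19084 and 16568 against 35538 and 42329 (limma adjusted p = 0.188), and H2-Aa 12834 and 9063 against 22279.6 and 24391. Of the 11 MHC class II genes, 6 lay higher (54.5%, against 19.9% of all genes) and 2 lower (18.2%, against 28.4%) in both glands of lot batch 2004907, none called. H2-DMb2 was the lowest in difference, with 787 and 931.5 against 594 and 402.

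Matrix and vessel genes were set apart by single glands more than by lot batch. Of 42 fibroblast and matrix genes, 30 were highest in gland 51 and 26 lowest in gland 25, against 1495 and 2015 of all 6427 genes. Col1a1, a chain of type I collagen, had 14686, 16104, 24578 and 53479.5, and Col15a1, a basement-membrane collagen, 3624, 2372, 4537 and 6595 in glands 23, 25, 49 and 51. The median difference of 0.45 was 0.12 without gland 25 and 0.16 without gland 51, and 13 genes lay higher (31.0%, against 19.9% of all genes) and 3 lower (7.14%, against 28.4%) in both glands of lot batch 2004907, none called. The median level of this list falls in the brightest quintile of probe sets, where 31.1% lay higher and 14.2% lower. Lox, which cross-links collagen, was low in gland 25 at 496, against 1452 to 1789 in the others. Among 21 endothelial genes gland 25 was the lowest for 14 and gland 23 the highest for 12, against 2015 and 1363 of all 6427 genes. Vwf, von Willebrand factor, had 2809, 229, 1352 and 2120.0, and Cdh5, VE-cadherin, 3398, 1126, 3131 and 5176. Pecam1 and Icam2, both adhesion molecules of endothelium, went opposite ways between the lot batches, with 1656 and 1829 against 721 and 545 for Pecam1 and 195 and 114 against 467 and 814 for Icam2. The endothelial median of 0.28 turned to -0.33 without gland 25.

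Genes of oxidative phosphorylation lay higher in lot batch 2004907 as a group. Of 39 measured, 29 were higher in both of its glands (74.4%, against 19.9% of all genes) and 5 lower (12.8%, against 28.4%), with a median difference of 0.52. The 1 called, Cox6a2, was lower and is the muscle form described above. Ndufb5, a complex I subunit, had 17417 and 14438 against 28439 and 28094, and Uqcrc2, a complex III subunit, 6354 and 5555 against 13878 and 10452. Ndufa1, a complex I subunit, went the other way, with 526 and 1905 against 439 and 275. The median was 0.29 after quantile normalization and 0.68 when arrays were centred on their medians. Chchd10, a small mitochondrial protein, had 7473 and 4956 against 18109 and 19358 (limma adjusted p = 0.119).

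Cell-cycle genes were highest in gland 25 and lowest in gland 51. Of 38, 31 were highest in gland 25 and 34 lowest in gland 51. None lay higher and 19 lay lower in both glands of lot batch 2004907, against 28.4% of all genes, with a median difference of -0.69 and none called. The median was -0.33 without gland 51, -0.44 without gland 25 and -1.08 without gland 23. Prc1, which bundles the spindle midzone, had 2009.7, 3259, 1069 and 742, and Nusap1, a spindle protein, 1707, 3339, 746 and 781. Foxm1, a transcription factor of mitotic genes, had 2466, 6821, 1756 and 1535. Aurkb, a mitotic kinase, was at 150.0 in gland 51 and between 1093 and 1642 in the others. The replication genes Mcm5 and Pcna were instead highest in gland 49, with 4310.2 and 7339.

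**Figure D4:**
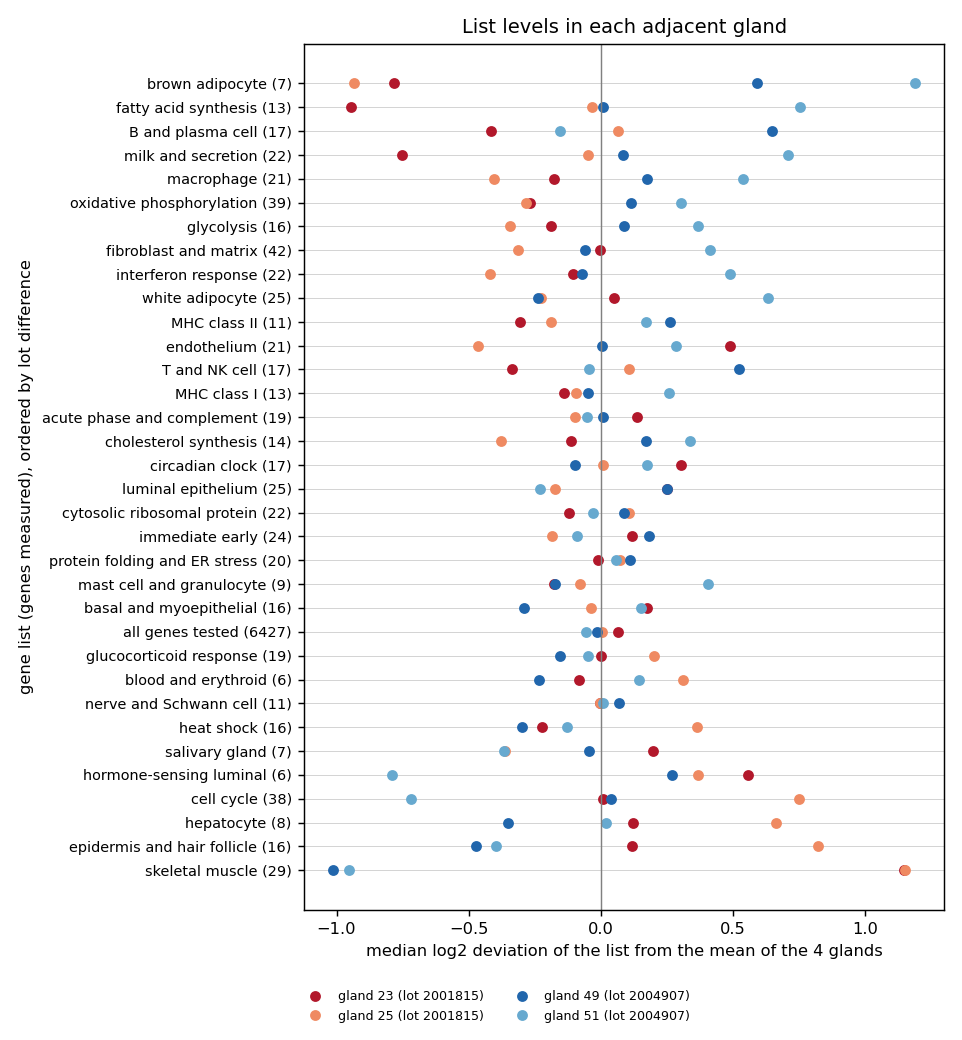
Median log2 deviation of each gene list from the mean of the 4 glands, 1 point for each gland, red for lot batch 2001815 and blue for 2004907, lists ordered by the difference between lot batches with the number of genes measured in brackets. Skeletal muscle (1.15 and 1.15 in glands 23 and 25, -1.01 and -0.95 in glands 49 and 51) and brown adipocyte genes lie at the ends, while for cell cycle, white adipocyte and endothelial genes single glands stand out.

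The other 17 lists had median differences between -0.72 (hepatocyte, 8 genes) and 0.51 (glycolysis, 16 genes), and no member was called. Among single genes outside the lists that missed the threshold narrowly, Ltb (above) was higher in lot batch 2004907. Dynll2 was higher as well, with 5146 and 2760 against 16844 and 14995 (limma adjusted p = 0.0988). Lower there were Sct, which encodes secretin, with 7904 and 11129.9 against 2430.0 and 2578 (limma adjusted p = 0.0788), Otog, which encodes otogelin, with 1028 and 1873.5 against 109.8 and 133 (0.0836), and Cwf19l1, with 1603 and 1592.5 against 339.9 and 314 (0.0911). Psap, the precursor of the lysosomal saposins, was higher, with 13107 and 13487 against 38977 and 32161 (0.114).

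No probe set was called by limma for any single gland against the other three, with 120 probe sets (1.38%) at an unadjusted p under 0.05 for gland 23, 1301 (15.0%) for gland 25, 168 (1.94%) for gland 49 and 314 (3.62%) for gland 51. As a description without a test, a gland was taken as standing alone where its gap to the nearest other was at least 2-fold. The gap also had to take more of the whole range than Dixon's criterion for an outlier among 4 values allows. Where every other gland was set to the floor, a gland that passed the filter met both by construction. The criterion alone held for 495 probe sets (5.71%) and both for 204 of 8668 (2.35%), with gaps of 1.01 (log2) just inside and 0.99 just outside. Gland 25 stood alone in 119 of them, 65 upward (0.750%) and 54 downward (0.623%). Gland 51 did in 22 (0.254%) and 16 (0.185%), gland 49 in 13 each way (0.150%), and gland 23 in 9 (0.104%) and 12 (0.138%).

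In gland 23 the slow-muscle genes were the highest above the rest and immunoglobulins among the lowest below it. In gland 25, Axl, a receptor tyrosine kinase of the TAM family, was at 693 and at or under the floor elsewhere. Crebbp, a histone acetyltransferase, was low there at 207 against 1427 to 2089, as were Col17a1, a hemidesmosomal collagen, at 214 against 893 to 1063.5, and Efnb2, an arterial ephrin, at 218 against 948 to 1093. In gland 49, Sema3b, a secreted semaphorin, was at 789 and Cd22, a B-cell lectin, at 404, with the others at or near the floor. Slc27a1, a fatty acid transporter, was low in gland 49 at 857 against 2776 to 3500.0. In gland 51, Tpsab1, a mast cell tryptase, was at 395.5 with the others at or under the floor, and Cpa3, the mast cell carboxypeptidase, at 1313 against 504 to 562. Plaur, the urokinase receptor, was at 469.8 in gland 51 with the others at or under the floor. Slc2a1, the glucose transporter GLUT1, had 2242 there against 793 to 889.

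Other probe sets of the same gene seldom met the rule for a lone gland. For genes standing alone in gland 25, 17 other probe sets were tested. Gland 25 was the most extreme in the same direction in 7 of them, and 0 met the rule. For gland 23 these were 5 and 0 of 6, for gland 49 0 and 0 of 2, and for gland 51 3 and 1 of 5. For the lot batches only the sign had to be the same, a looser measure, so the counts of direction are not comparable. Of 117 other probe sets of genes that differed at least 2-fold between the lot batches without overlap, 75 had the same sign and 36 met the same rule, and at 4-fold 13 of 17 did. Such 2-fold separated probe sets numbered 1410 (16.3%), 440 higher (5.08%) and 970 lower (11.2%) in lot batch 2004907.

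The arrays themselves differed with signal level. In the dimmest quintile of probe sets the median deviation from the mean of the 4 glands was 0.42 in gland 25 and 0.07 in gland 23, against -0.23 and -0.24 in glands 49 and 51. In the brightest quintile it was -0.12 in gland 25 and 0.07 and 0.06 in glands 49 and 51. The median difference between lot batches therefore ran from -0.46 for the dimmest to 0.13 for the brightest. Of the probe sets in which gland 25 stood alone, 52 of 119 lay in the dimmest quintile. The median intensity of the muscle list was 513 and that of the epidermis list 847, which places them near the second quintile, where the median difference was -0.27. The cell cycle list, with 1355, lay near the third, where it was -0.13. The lists of fibroblast and matrix (4117), white adipocyte (5656) and fatty acid synthesis (11272) genes lay in the brightest. So did oxidative phosphorylation (8869) and milk and secretion (13075). The part of signal level in the list medians and counts was not tested.

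**Figure D5:**
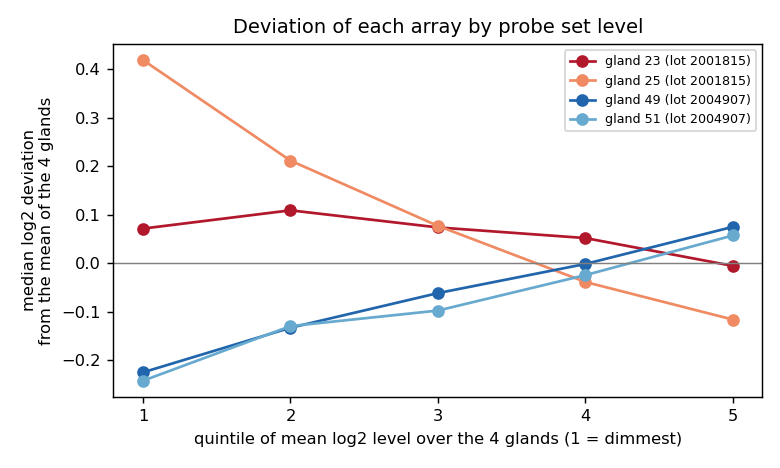
Median log2 deviation from the mean of the 4 glands within each quintile of probe set level, from the dimmest (1) to the brightest (5), 1 line for each gland. Gland 25 runs from 0.42 down to -0.12, and glands 49 and 51 from -0.23 and -0.24 up to 0.07 and 0.06.

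Control probe sets also moved with the glands. The log2 ratio of the 3′ to the 5′ Actb control, a measure of how complete the labelled RNA is, was 1.13 and 1.52 in glands 23 and 25 and 0.38 and 0.63 in glands 49 and 51, while that of Gapdh lay between -0.27 and 0.27 in all 4. For the Pcx control the ratio was 2.81 and 3.24 in glands 23 and 25 and 2.67 and 2.10 in glands 49 and 51. The 18S ribosomal RNA control had 1002, 3151, 493 and 366 in glands 23, 25, 49 and 51. Of 9 probe sets for RNAs added during preparation or hybridisation, 8 were highest in gland 25 and 6 lowest in gland 23. The part of these in the differences above was not tested.

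Actb, cytoplasmic beta-actin, is named here after its values were seen, since its probe sets disagree. One Actb probe set was called between the lot batches, with 10702 and 12806 against 689 and 1591 (difference -3.48 ± 0.41 SE, limma adjusted p = 0.0253), and a second had 6669 and 12276 against 855 and 2218. The 3 control probe sets for Actb went the opposite way, with 35237 and 61839 against 104854 and 93909 for the 3′ part and 16069 and 21547.5 against 80773 and 60801 for the 5′ part. The first pair therefore gives no level of Actb, and actins share much of their sequence.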

How the data were processed

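RNA of each gland was hybridised to 1 one-color oligonucleotide array. The deposited table holds 1 intensity for each of 12488 probe sets on a linear scale (software: not given in the sources used here). The mean after trimming lay between 1500.67 and 1500.86 on the 4 arrays, while their medians ran from 609 to 784, so the deposited intensities were read as already scaled by the authors and left at that. The total number of arrays limits the precision.

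Values under the 20th percentile of all 14 arrays (101.42) were raised to that floor before taking log2. Left out were 66 control probe sets and 3754 others not above the 40th percentile of their own array on at least 1 of the 4 arrays, so that 8668 were tested; 1.33% to 2.53% of tested values per array were at the floor. Folds against floored glands are lower bounds. For Ucp1, Myh4, Cox6a2 and Sprr1a both glands of the lower lot batch were set to the floor. Their spread there was not measured, so the SE and p can be too small. These genes passed the filter only through the lot batch where they were high. So did Acta1, Tnnt3, Ccl5 and the second Atp2a1 probe set. Platform annotation named 10855 probe sets with 1 gene (396 had several, 1237 none), and 10839 symbols were updated through a RefSeq table (GRCm38.p6). The probe set with the highest mean stood for each of 6427 genes. RefSeq promoters were matched by symbol.

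limma 3.58.1 in R 4.3.3 (lmFit, eBayes with an intensity trend) compared the 2 lot batches on the 4 arrays alone, with 2 residual and 5.87 prior degrees of freedom, and each gland with the other 3. p-values are two-sided and were adjusted by Benjamini and Hochberg over all probe sets. With nothing to show that glands came from separate animals, they measure the spread between these samples. On simulated data with 200 of 8668 probe sets changed, the fit between lot batches recovered 2% of 2-fold, 36% of 4-fold, 70% of 8-fold and 72% of 16-fold changes with 4 false calls. For 1 gland alone these were 0%, 10%, 46% and 64%, with 2 false calls. The simulated arrays held no other difference between lot batches. In the data that difference adds to the spread among the other 3 glands, so these shares for 1 gland alone do not carry over. Genes were named by rule: those called, the smallest p among those not called, up to 2 of each list, and the widest gaps of a lone gland; others illustrate their list. The samples, the 33 gene lists (588 genes measured, 18 in more than 1 list) and the rules were chosen with earlier results of these data known. Alternatives were quantile normalization, median centring, floors of 20 and 200, other filters, no intensity trend, the spread of all 14 arrays and leaving out each gland. Tumor and wild-type arrays entered only the floor and that spread.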

Additional observations from a re-analysis of the deposited data

Results flagged for a closer look

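These genes are listed because 1 of the 4 glands lay farther from the others than Dixon's criterion for an outlier allows, with at least 2-fold to the nearest gland. Without floored values, chance alone gives such a share in about 1 of 20 groups of 4, so the pattern is common. In all, 495 of 8668 probe sets (5.71%) passed the criterion before the 2-fold minimum and 204 with it. Where every other gland was set to the floor, as for Myl2, Axl, Sema3b and Plaur, the criterion was met by construction. Such probe sets passed the filter only through the gland where they were high, so floor and filter fixed that it stood alone. Genes were taken as the widest gaps in each gland and direction and the members of gene lists. Gaps are on the log2 scale, and a gap against glands at the floor is a lower bound.

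Gland 23 stood above the rest by at least 4.41 for Myl2, 3.19 for Tnnc1, 2.67 for Myl3 and 2.51 for Rpap3. It stood below by 2.78 for Igkv6-14, at least 2.71 for Abhd8, 1.74 for Igha and 1.65 for Igkv8-19. Myl2, Tnnc1 and Myl3 encode slow or cardiac muscle proteins, and Igkv6-14, Igha and Igkv8-19 immunoglobulin chains.

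Gland 25 stood above by 2.92 for Sprr3, at least 2.77 for Axl, 2.74 for Prpf39 and at least 2.70 for Igbp1b. It stood below by 2.90 for Akap8l, 2.78 for Crebbp, 2.62 for Tex264 and 2.55 for Npepl1. List members low in gland 25 were Efnb2 (gap 2.12), Col17a1 (2.06), Ddit3, a stress-response transcription factor (1.95), Lox (1.55), Dkk3 (1.47), Bhlhe40 (1.15) and Mfap4 (1.11).

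Gland 49 stood above by at least 2.96 for Sema3b, at least 2.66 for Cd8b1, at least 1.93 for Xrn1 and 1.83 for Cd22. It stood below by 2.31 for Tubb4a, 1.85 for Ssc4d, 1.70 for Slc27a1 and 1.47 for Eif3f.

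Gland 51 stood above by at least 2.21 for Plaur, 2.17 for Orm2, 2.04 for Fxr2, at least 2.04 for Adra1b, at least 1.96 for Tpsab1, 1.33 for Slc2a1 and 1.22 for Cpa3. It stood below by 2.86 for Aurkb, 2.75 for Gdf9, 2.71 for Rangrf, at least 2.70 for Specc1, at least 2.37 for Tnfsf11 and 1.28 for Chil1.

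Among medians of whole lists, that of the mast cell and granulocyte list stood apart in gland 51 by 0.49, and that of the nerve and Schwann cell list stood apart in gland 49 by 0.063.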

How the results depend on the processing

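With 2 glands a side the calls depended on the estimate of spread. Against 12 probe sets, 9 to 16 were called under quantile normalization, median centring, either other floor and stricter filters, 7 without an intensity trend, 144 with the spread of 14 arrays, and 0 with no filter on dim probe sets (1466 at an unadjusted p under 0.05). Leaving out a gland gave 0 each time; the lone gland was then assumed to vary like the pair. The 10 called genes kept their direction in every alternative run, and lost their call in 62 of 129. Acta1 lay between -6.66 and -6.36 and Ucp1 between 5.52 and 6.89.

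For a gland alone, no filter gave 100 probe sets in gland 23, 573 in gland 25, 71 in gland 49 and 120 in gland 51; in 93, 445, 60 and 102 of them the other glands were all at the floor, with no spread. The spread of 14 arrays gave 1 for gland 23, 114 for gland 25 and 4 for gland 51. Gland 25 had 1 with a floor of 20 and 1 when 2 arrays had to pass the filter. Leaving out a gland gave 0.

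Median centring moved the median difference of all genes from -0.05 to 0.10. The muscle median was -2.12 under quantile normalization, -2.05 under median centring, -2.54 and -1.72 with floors of 20 and 200, -1.71 unfiltered, -2.44 and -2.25 under stricter filters, and -2.35 to -1.95 without 1 gland. The brown adipocyte median was 1.51 unfiltered and 1.15 to 2.30 without 1 gland. That of oxidative phosphorylation was 0.29 and 0.68 under the first pair of scalings, and that of T and NK cells 0.65 when a gene's probe sets were averaged. Without 1 gland the medians ran from -0.34 to 0.22 for luminal, -0.34 to 0.12 for basal, -1.16 to -0.51 for epidermis, 0.12 to 0.64 for fibroblast, -0.33 to 0.46 for endothelium, 0.032 to 0.85 for B-cell and 0.00 to 0.85 for T and NK cell genes. The cause was not tested. No paired analysis was possible because the 2 lot batches share no replicate number.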

Other observations

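Several gene groups outside the comparisons above had members that separated the lot batches without a call. In the cholesterol list, Mvd, mevalonate decarboxylase, had 102.0, 216, 685 and 916 in glands 23, 25, 49 and 51, and Fdps, farnesyl diphosphate synthase, 1901, 1606, 4308 and 6510.2 (limma adjusted p of 0.223 and 0.154). Among glucocorticoid-response genes, Zbtb16, a transcription factor also known as PLZF, had 3840.4 and 5679 against 1339 and 1306 (limma adjusted p = 0.112). In the interferon list of 22 genes, 9 lay higher (40.9%, against 19.9% of all genes) and 0 lower (against 28.4%) in both glands of lot batch 2004907, and Ifi27 had 10028.5 and 10639 against 20677 and 22342. Pkm, pyruvate kinase, had 13116 and 12005 against 26958.5 and 28956 (limma adjusted p = 0.174). Ptx3, a soluble pattern-recognition protein, was lower in lot batch 2004907, with 1024 and 628 against 138 and 259. Aldoc, an aldolase, crossed the lot batches, with 20670.4 and 44997 in glands 23 and 49 and 3499 and 11896 in glands 25 and 51.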
